A study of Mus musculus with 6 samples.

Results

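The genes described here are the 7 insulin-like growth factor (IGF) binding proteins, Igfbp1 to Igfbp7, and the 3 receptors of insulin and the IGFs, Igf1r, Igf2r and Insr. They were found by gene symbol among the 47643 genes of the count table, and all 10 were among the 17012 genes with enough reads to be tested. The tissue was liver tumor from mice of the FVB/N strain with 2 transgenes, LAP-tTA and tetO-MYC. In this system the LAP promoter, which is active in hepatocytes, drives a transactivator that switches on a MYC transgene when doxycycline is removed. Both groups carried the same transgenes: they drank doxycycline at 100 mg/L up to an age of 4 weeks, had MYC on for 8 weeks, and were then dosed for 2 weeks. One group received vehicle and the other 50 mg/kg/day of GSK3326595, which blocks PRMT5, an enzyme that methylates arginines. The comparison asks how the inhibitor alters gene expression in these tumors.

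IGF1 and IGF2 signal through the type 1 IGF receptor, a tyrosine kinase closely related to the insulin receptor. The type 2 receptor, also the cation-independent mannose 6-phosphate receptor, takes IGF2 into the cell for degradation. The binding proteins hold IGFs in the circulation and in tissue, and release them when cut by proteases. The liver is the main source of circulating IGF1, and it secretes several of the binding proteins, some under the control of insulin or growth hormone.

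There were 3 vehicle and 3 GSK3326595 libraries of total RNA, holding between 25814339 and 33621083 expected counts. The labels number the replicates but do not say that each came from its own animal, so p-values measure only the spread between these samples, which may be technical. GSK3326595 replicate 2 stood apart on the first principal component (38.1% of the variance), at 103.1 where the other 5 libraries lay between -50.2 and 9.37. All 7 hepatocyte markers found in the table were present in every library, Alb at 3157 to 11944 CPM (counts scaled to library size). The summed hepatocyte markers came to between 16530 and 32100 CPM in vehicle and between 9531 and 27940 CPM in GSK3326595, lowest in GSK3326595 replicate 3. This sum is weighted to the most abundant markers, and not all markers followed it. Hnf4a had 541, 525 and 498 CPM in vehicle and 484, 521 and 412 CPM in GSK3326595. Ttr had 1049, 1039 and 957 CPM in vehicle and 2448, 1642 and 898 CPM in GSK3326595. Of the 7 markers 2 had higher values in GSK3326595 (median log2 difference -0.14). For Prmt5, whose protein the drug inhibits, vehicle libraries averaged 67.9 ± 18.0 CPM and treated ones 92.4 ± 39.4 CPM (SD, n = 3 each), which differ by 0.44 ± 0.37 in log2 (SE). In bulk RNA a lower value from fewer cells of a type and from less RNA per cell cannot be told apart.

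None of the 10 genes passed edgeR's test adjusted over all genes, as was the case for every gene tested (0 of 17012, 0%). At an unadjusted p under 0.05, Igfbp7 was higher in GSK3326595 and no member was lower, where 5.45% of all genes were higher and 3.81% lower. DESeq2 called 0 members, against 1.16% of its genes higher and 0.638% lower. The groups did not overlap in Igfbp7, which was higher, and overlapped in the other 9 members, against 6.72% of all genes higher and 7.66% lower without overlap. The members' median log2 difference was 0.06, beside 0.03 over all genes tested. The spread over all 6 libraries, which includes any difference between the groups, varied widely between members. The SD of log2 CPM over the 6 libraries was 2.43 for Igfbp1 and 1.95 for Igfbp2, larger than in 99.2% and 98.1% of the genes tested, while Igfbp4 at 0.21 exceeded 17.6%.

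**Figure D1:**
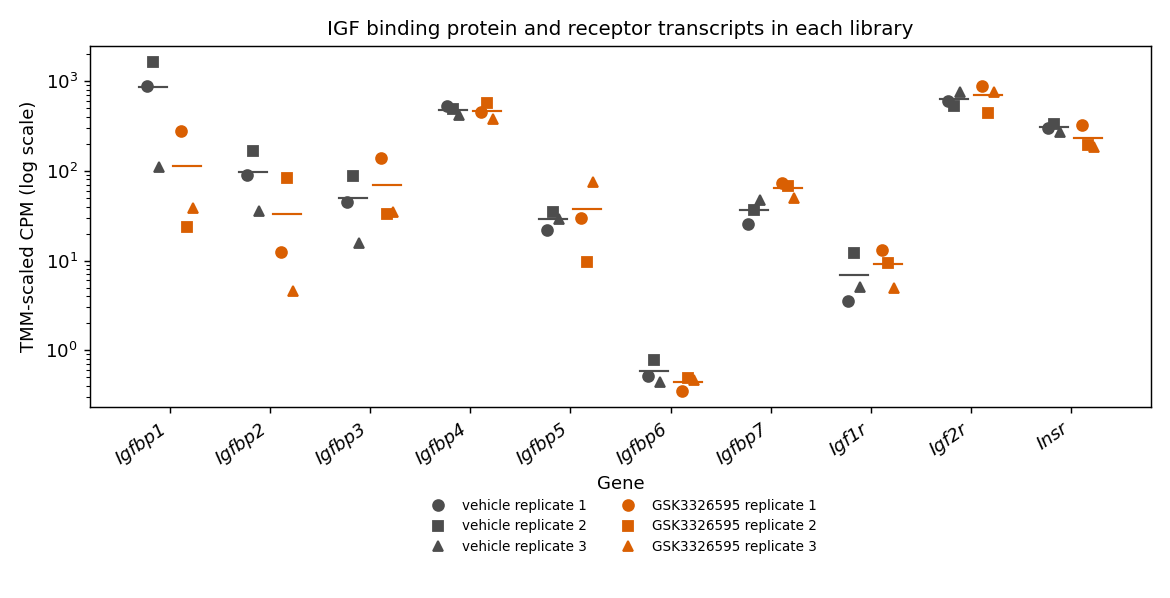
TMM-scaled CPM (log axis) of each of the 10 genes. Each point is 1 library, grey for vehicle and orange for GSK3326595, with a marker shape per replicate number, and the lines are group means. Igfbp1 spans from 23.5 to 1617 CPM, while Igfbp4 stays between 376 and 563 CPM.

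Igfbp1, a small secreted binding protein whose transcription in hepatocytes is repressed by insulin, had the widest range of the members. It lies on chromosome 11 (ENSMUSG00000020429.7, 7197782 to 7202546, plus strand, GRCm38). Its promoter is a textbook example of an insulin response element, a pair of sites bound by FOXO transcription factors. The bases before its start are shown because they hold matches to the FOXO motif, and those of Igfbp2, the second most variable member, are shown beside them. Capitals mark matches on either strand to the FOXO motif CAAAACA and its variant CAAAATA (which the opposite strand reads as TATTTTG), and to the motif CACGTG, the E-box bound by MYC with its partner MAX. The sequences are from RefSeq, build GRCm38.p6, both on the plus strand, at chr11:7197537-7197781 and chr1:72824230-72824479.
Igfbp1: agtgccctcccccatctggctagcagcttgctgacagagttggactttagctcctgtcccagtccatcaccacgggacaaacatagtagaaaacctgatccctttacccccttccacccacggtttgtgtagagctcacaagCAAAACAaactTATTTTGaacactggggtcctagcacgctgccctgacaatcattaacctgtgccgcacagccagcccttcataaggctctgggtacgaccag
Igfbp2: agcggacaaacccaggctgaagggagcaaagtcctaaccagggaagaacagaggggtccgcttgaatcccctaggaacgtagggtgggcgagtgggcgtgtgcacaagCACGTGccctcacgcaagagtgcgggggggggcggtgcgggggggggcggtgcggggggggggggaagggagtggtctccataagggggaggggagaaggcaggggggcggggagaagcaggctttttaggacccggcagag

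The printed Igfbp1 stretch ends at the base before the GENCODE start, a few bases short of the RefSeq start. In Igfbp1 the matches begin 108 and 97 bases before the RefSeq start, and in Igfbp2 the E-box begins 142 bases before it. Of 32851 RefSeq promoter windows, searched over the same 250 bases, 5.56% held CAAAACA, 3.95% CAAAATA and 6.02% CACGTG. Windows were found for 9 of the 10 members. Igf2r held CACGTG 48 and 7 bases before its start. None of the other members' windows held these motifs, and none held TTCNNNGAA, a STAT site present in 7.02% of windows. Such matches are letters in a window and were not measured as binding here.

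Igfbp1 had 872, 1617 and 111 CPM in vehicle replicates 1, 2 and 3, and 275, 23.5 and 38.5 CPM in GSK3326595 replicates 1, 2 and 3. Vehicle replicates 1 and 2 were the highest, and vehicle replicate 3 lay below GSK3326595 replicate 1, so the groups overlapped. The means were 867 ± 753 and 112 ± 141 CPM (SD, n = 3 each), and the log2 difference was -2.95 ± 1.24 (SE, 95% interval -5.91 to 0.02; edgeR adjusted p = 0.541, unadjusted p = 0.0509). The value ranged from -2.13 without vehicle replicate 2 to -4.81 without GSK3326595 replicate 1. The summed hepatocyte markers of the same libraries, weighted to the most abundant ones, were 28350, 32100 and 16530 CPM in vehicle and 27940, 26330 and 9531 CPM in GSK3326595. Vehicle replicate 2 was highest in both measures, and vehicle replicate 3 and GSK3326595 replicate 3 were low in both, while GSK3326595 replicate 2 had the lowest Igfbp1 beside markers close to those of vehicle replicate 1. Their part in the Igfbp1 difference was not tested. By the root mean square difference of mean-centred log2 CPM over the 6 libraries, the genes nearest in pattern among 14457 were Zbtb8b, at 0.42, and Gpx3, a secreted glutathione peroxidase, at 0.439. Zbtb8b had 1.43, 4.69 and 0.179 CPM in vehicle and 0.806, 0.031 and 0.0722 CPM in GSK3326595, so its lowest values were close to the limit of the data. Gpx3 had 156, 291 and 21.99 CPM in vehicle and 43.9, 7.38 and 13.6 CPM in GSK3326595.

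Igfbp3, the main carrier of IGFs in blood, lies 3539 bases from Igfbp1, tail to tail on the minus strand (ENSMUSG00000020427.11, chromosome 11, 7206086 to 7213923). Its vehicle values were 45.3, 88.5 and 15.5 CPM, and its GSK3326595 values 138, 33.3 and 35.1 CPM. The highest and the lowest library thus came from different groups, and the values overlapped. The means were 49.8 ± 36.7 and 68.8 ± 59.9 CPM (SD, n = 3 each), and differed in log2 by 0.47 ± 0.77 (SE, 95% interval -1.37 to 2.30; edgeR adjusted p = 0.908). Without GSK3326595 replicate 1 it was -0.54. The nearest patterns were those of Kcnj2, a potassium channel (0.204), and Fbxo32, a ubiquitin ligase adaptor known from muscle atrophy (0.234). GSK3326595 replicate 1 was higher than every vehicle library in Igfbp3. In Igfbp1 it lay below vehicle replicates 1 and 2 and above vehicle replicate 3.

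Igfbp2, a binding protein of fetal and fasting liver, and Igfbp5, best known from mesenchymal tissue and bone, form the other neighbouring pair, 5457 bases apart on chromosome 1 with no protein-coding gene between them. Igfbp2 (ENSMUSG00000039323.18, 72824503 to 72852474, plus strand) had 88.9, 166 and 35.5 CPM in vehicle and 12.5, 82.3 and 4.62 CPM in GSK3326595. GSK3326595 replicates 1 and 3 lay below all vehicle libraries, and replicate 2 lay among them. The log2 difference was -1.55 ± 1.06 (SE, 95% interval -4.08 to 0.98; edgeR adjusted p = 0.697). Without GSK3326595 replicate 2 it was -3.47 (unadjusted p = 0.00549, edgeR adjusted p = 0.459). Its nearest patterns were Aspg, an asparaginase (0.284), and Cps1, the entry enzyme of the urea cycle (0.378), which had 5894, 7322 and 1413 CPM in vehicle and 982, 3569 and 315 CPM in GSK3326595.

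Igfbp5 (ENSMUSG00000026185.8, 72857932 to 72874884, minus strand) had 22.02, 34.97 and 29.0 CPM in vehicle. The GSK3326595 libraries had 29.6, 9.55 and 74.6 CPM, so replicate 2 gave the lowest and replicate 3 the highest of all 6 values. The log2 difference was 0.40 ± 0.66 (SE, 95% interval -1.17 to 1.98; edgeR adjusted p = 0.908), and without GSK3326595 replicate 3 it was -0.53. In that library Igfbp2 was at its lowest, and Igfbp5 at its highest. The nearest patterns were Msantd3 (0.21) and March9, a membrane ubiquitin ligase (0.223).

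Igfbp4, a binding protein that restrains IGF action until it is cut by the protease PAPP-A, varied little. It (ENSMUSG00000017493.12, chromosome 11, 99041244 to 99054392, plus strand) had 522, 486 and 416 CPM in vehicle and 457, 563 and 376 CPM in GSK3326595. The values of the groups were interleaved, and differed in log2 by -0.03 ± 0.21 (SE; edgeR adjusted p = 0.981). The 95% interval ran from -0.54 to 0.48, and the sign turned under other scaling. Igfbp6, which prefers IGF2, was close to the limit of the data with 11 to 23 counts per library (ENSMUSG00000023046.6, chromosome 15, 102144362 to 102149511, plus strand). It had 0.510, 0.782 and 0.448 CPM in vehicle and 0.355, 0.496 and 0.469 CPM in GSK3326595, and its log2 difference of -0.39 ± 0.39 (SE; edgeR adjusted p = 0.807) was not distinguishable from 0 at this depth.

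Igfbp7, a secreted protein with low affinity for IGFs that is abundant in vessels and stroma, was the member with the smallest p. It lies on chromosome 5 (ENSMUSG00000036256.13, 77349240 to 77408041, minus strand). Vehicle replicates had 25.3, 36.1 and 47.1 CPM, and GSK3326595 replicates 73.0, 67.8 and 49.7 CPM. The lowest treated library lay just above the highest vehicle library. The means were 36.2 ± 10.9 and 63.5 ± 12.3 CPM (SD, n = 3 each), for a difference of 0.81 ± 0.27 in log2 (SE, 95% interval 0.16 to 1.46; edgeR adjusted p = 0.522, unadjusted p = 0.0221), higher in 3 of 3 treated libraries. The unadjusted p was above 0.05 without vehicle replicate 1 (0.07), vehicle replicate 2 (0.059) or GSK3326595 replicate 1 (0.0651). The difference lay between 0.61 and 1.08 whichever library was left out.

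Markers of other cell types were set beside Igfbp7. Of 12 stellate cell and fibroblast markers 10 had higher values in GSK3326595 (median log2 difference 0.86). Of these, 2 were at an unadjusted p under 0.05, where 5.45% of all genes were higher. The summed level of all 12 was 143, 279 and 584 CPM in vehicle and 600, 764 and 819 CPM in GSK3326595. Ranked by this sum, the vehicle libraries stood in their Igfbp7 order, and the GSK3326595 libraries in the reverse of theirs. The sum is weighted to its most abundant markers. Col3a1 alone had 44.0, 72.0 and 246 CPM in vehicle and 254, 329 and 408 CPM in GSK3326595. The markers with lower values in GSK3326595 were Acta2 (-0.07) and Tagln (-0.30). Of 10 endothelial markers 7 had higher values (median 0.40), 0 of them at an unadjusted p under 0.05. Their sums overlapped, at 106, 172 and 182 CPM in vehicle and 229, 263 and 127 CPM in GSK3326595. By the endothelial sum the vehicle libraries again stood in their Igfbp7 order. GSK3326595 replicate 3 was the lowest treated library in both Igfbp7 and the endothelial sum. All 7 T cell markers tested had higher values (median 2.67), 7 of them at an unadjusted p under 0.05, where 5.45% of all genes were higher. The sums of all 10 T cell markers ran from 4.12 to 7.55 CPM in vehicle and from 12.3 to 31.5 CPM in GSK3326595. Cd4 weighed most in these sums, at 4.72, 5.34 and 2.80 CPM in vehicle and 11.7, 18.6 and 7.83 CPM in GSK3326595. The other T cell markers were at or below 0.41 CPM in every vehicle library, close to the limit of the data. Values were also higher in 6 of 8 macrophage, 4 of 4 B and plasma cell and 3 of 5 biliary and progenitor markers tested. Of 3 erythroid markers 1 had a higher value (median -0.25). None of these markers was at 0 in every library, and their part in the Igfbp7 difference was not tested. Igfbp7 also overlaps the antisense gene Gm34648 and the end of Polr2b on the opposite strand. The strand setting of the counting was not in the labels or notes used here, so reads of such pairs may be shared.

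**Figure D2:**
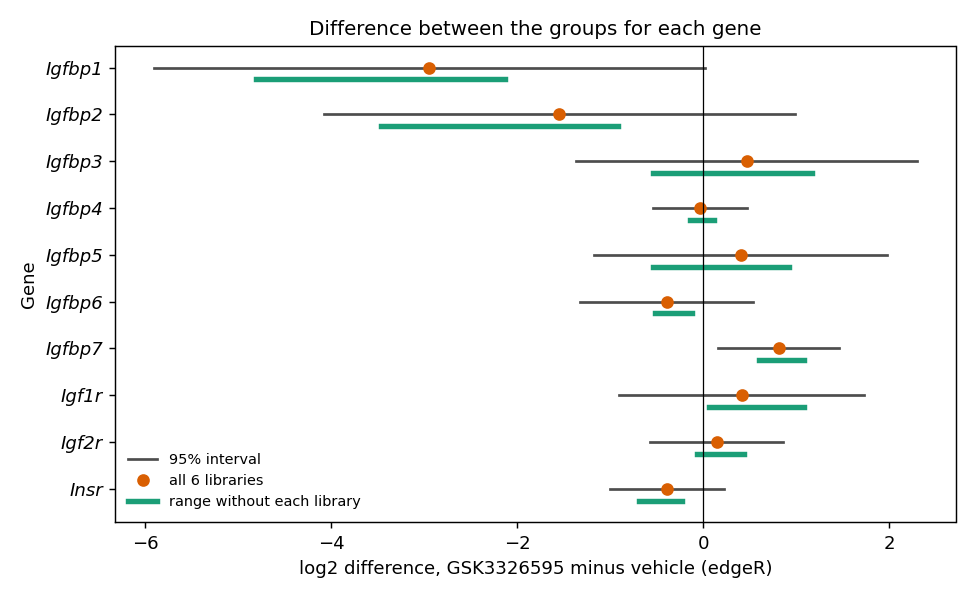
The log2 difference of each gene, GSK3326595 minus vehicle. Orange points are the edgeR estimates from all 6 libraries, grey lines their 95% intervals, and green bars the range when each library is left out in turn. The interval of Igfbp7 (0.16 to 1.46) lies above 0, and those of the other 9 genes include 0.

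Of the receptors, Insr, the insulin receptor, had 304, 336 and 273 CPM in vehicle and 321, 193 and 184 CPM in GSK3326595 (ENSMUSG00000005534.10, chromosome 8, 3122061 to 3279617, minus strand). GSK3326595 replicates 2 and 3 lay below every vehicle library, and replicate 1 lay among them. The log2 difference was -0.39 ± 0.26 (SE, 95% interval -1.0001 to 0.23; edgeR adjusted p = 0.685). Without GSK3326595 replicate 1 it was -0.69 (unadjusted p = 0.00945, edgeR adjusted p = 0.452). Gene totals do not separate the isoforms of the insulin receptor that differ in their response to IGF2.

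Igf1r, the type 1 IGF receptor, is scarce in adult hepatocytes, and it was low in these tumors (ENSMUSG00000005533.10, chromosome 7, 67952827 to 68233668, plus strand). It had 3.57, 12.0 and 5.04 CPM in vehicle and 13.1, 9.46 and 4.91 CPM in GSK3326595, and differed in log2 by 0.42 ± 0.55 (SE, 95% interval -0.90 to 1.73; edgeR adjusted p = 0.869). It was 0.06 without GSK3326595 replicate 1 and 1.09 without vehicle replicate 2. The group ranges lay almost on top of each other. Per kilobase of exon, Igf1r stood at 0.00962, 0.0293 and 0.0151 of Insr in vehicle and at 0.0335, 0.0401 and 0.0218 of it in GSK3326595.

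Igf2r, the clearance receptor for IGF2, had 595, 531 and 765 CPM in vehicle and 888, 444 and 760 CPM in GSK3326595 (ENSMUSG00000023830.13, chromosome 17, 12682406 to 12769664, minus strand). The lowest and the highest value both came from treated libraries. The log2 difference was 0.15 ± 0.30 (SE, 95% interval -0.57 to 0.86; edgeR adjusted p = 0.933), and without GSK3326595 replicate 1 it was -0.07. Igf2r overlaps Airn, the noncoding RNA of the opposite strand that takes part in its imprinting, over 28354 bases.

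Levels of different genes were compared as CPM per kilobase of merged exons. Averaged over the 6 libraries, Igfbp1 came first at 321, followed by Igfbp4 at 106.5, Igf2r at 71.3, Igfbp7 at 41.2, Igfbp2 at 35.2, Insr at 19.5, Igfbp3 at 18.9, Igfbp5 at 5.54, Igf1r at 0.477 and Igfbp6 at 0.459. The ranges over libraries of neighbours in this order overlapped, except for Igfbp5 (1.59 to 12.4) and Igf1r (0.212 to 0.781). Igfbp1 owed its place to vehicle replicates 1 and 2, at 572 and 1061. In GSK3326595 replicate 2 it stood at 15.4, below Igfbp4 at 127.6, Igfbp7 at 56.1, Igf2r at 47.7 and Igfbp2 at 44.5.

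The binding proteins' makeup followed from this. Of the summed level per kilobase of the 7 binding proteins, Igfbp1 made up 73.5%, 80.0% and 30.9% in vehicle and 45.1%, 6.01% and 14.2% in GSK3326595. Igfbp4 made up 15.2%, 8.31% and 40.0% in vehicle and 25.8%, 49.8% and 47.8% in GSK3326595, and was the leading binding protein in vehicle replicate 3 and GSK3326595 replicates 2 and 3. The share of Igfbp3 was 1.86%, 2.13% and 2.11% in vehicle and 11%, 4.15% and 6.31% in GSK3326595, without overlap. Its own level overlapped, at 14.5, 28.3 and 4.96 CPM per kilobase in vehicle and 44.1, 10.6 and 11.2 in GSK3326595. The Igfbp3 share thus also depends on the summed level, most of which was Igfbp1 in vehicle replicates 1 and 2. An exact two-sided permutation test gave p = 0.1 for this share, the smallest that n = 3 against 3 allows, and an adjusted p of 0.28 over the 7 shares tested. The mean shares of Igfbp1 were 61.5% ± 26.7 and 21.8% ± 20.6 (SD, n = 3 each; exact permutation p = 0.2, adjusted p = 0.28). Without Igfbp1, the sum of the other 6 was 206, 265 and 163 CPM per kilobase in vehicle and 220, 241 and 153 in GSK3326595, so the groups' ranges were nearly alike.

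**Figure D3:**
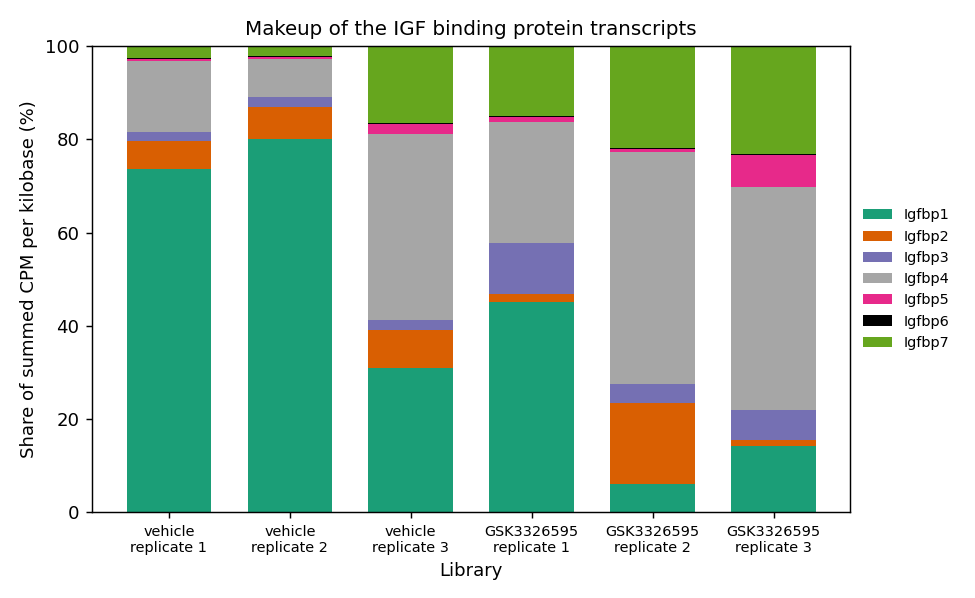
Share of each binding protein in the summed CPM per kilobase of the 7 genes, as a stacked bar per library. Igfbp1 takes 73.5% and 80.0% in vehicle replicates 1 and 2, and between 6.01% and 45.1% in the other 4 libraries.

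The ligands were measured beside their binding proteins. Igf2, the fetal growth factor, had 2607, 2795 and 1897 CPM in vehicle and 2631, 1318 and 1071 CPM in GSK3326595. Its log2 difference was -0.54 ± 0.38 (SE, edgeR adjusted p = 0.706). It was -1.03 without GSK3326595 replicate 1 and -0.28 without GSK3326595 replicate 3. Igf2 overlaps the readthrough gene Gm49394 on the same strand, so its expected counts may be split with it. Igf1 had 51.9, 70.3 and 35.7 CPM in vehicle and 45.9, 264 and 38.3 CPM in GSK3326595. Per kilobase, Igf2 exceeded Igf1 by 48.4 to 99.1 times in 5 libraries and by 8.64 times in GSK3326595 replicate 2.

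The same library was alone high in Igfals, the acid-labile subunit that joins IGF and IGFBP3 in a ternary complex. Igfals had 4.97, 4.22 and 4.03 CPM in vehicle and 3.93, 31.7 and 2.02 CPM in GSK3326595. With all libraries the log2 differences were 1.14 ± 0.76 for Igf1 and 1.51 ± 0.97 for Igfals (SE; edgeR adjusted p = 0.686 and 0.672). Without GSK3326595 replicate 2 they were -0.28 and -0.52. Of the insulin genes, Ins1 had no counts, and Ins2 stayed at or below 1.13 CPM and under the filter.

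Besides the members, 87 genes of the insulin and IGF pathway were in the table, and 78 were tested. None passed edgeR's test adjusted over all genes. At an unadjusted edgeR p under 0.05, 4 were higher and 9 lower, beside 5.45% and 3.81% of all genes. Without overlap between the groups, 3 were higher and 11 lower, beside 6.72% and 7.66% of all genes. The median log2 difference of the 78 was -0.04 against 0.03 over all genes. DESeq2, adjusted over its genes, called 1 higher (Pik3r3) and 3 lower (Pappa, Grb10 and Cish), beside 1.16% and 0.638% of all its genes. The count of higher genes was 1 without vehicle replicate 1, 2 without GSK3326595 replicate 1, 7 without GSK3326595 replicate 2 and 8 without GSK3326595 replicate 3, and that of lower genes was 5 without vehicle replicate 2 and 6 without GSK3326595 replicate 3. Pappa, Pik3r3, Irs2, Grb10, Foxo1 and Cish kept an unadjusted p under 0.05 without each library in turn, and Grb2, Ptpn1, Trib3, Foxo3, Foxo4, Ghr and Onecut1 did not.

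Among the proteases of the binding proteins and their inhibitors, 0 of 5 tested were higher and 1 lower at an unadjusted p under 0.05. Pappa, which encodes the protease PAPP-A that cuts IGFBP4, had 2.10, 3.06 and 2.18 CPM in vehicle and 0.838, 0.868 and 0.830 CPM in GSK3326595. The groups were well apart, at a difference of -1.53 ± 0.30 in log2 (SE; edgeR adjusted p = 0.455, DESeq2 adjusted p = 0.0108), and the difference was between -1.63 and -1.34 without each library. Htra1, a serine protease that cuts binding proteins, had 3.03, 7.18 and 2.36 CPM in vehicle and 21.3, 4.87 and 6.02 CPM in GSK3326595. It differed by 1.36 ± 0.70 (edgeR adjusted p = 0.599), and by 0.38 without GSK3326595 replicate 1, its highest library. Stc2, an inhibitor of PAPP-A, differed by 0.81 ± 0.58 (0.715). Of 5 tested relatives of the binding proteins none had an unadjusted edgeR p under 0.05. Wisp1 differed by 1.46 ± 0.63 (unadjusted p = 0.0538 by edgeR, 0.023 by DESeq2 and 0.0347 by limma-voom), Nov by 0.82 ± 0.49 and Ctgf by -0.56 ± 0.35, all matricellular proteins of the CCN family.

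Adaptors and kinases carry the signal on from the receptors. Among 22 adaptors and kinases tested, 2 were higher and 1 lower at an unadjusted p under 0.05. Irs2, a docking protein of the insulin receptor in liver, had 152, 208 and 94.2 CPM in vehicle and 83.2, 44.4 and 57.4 CPM in GSK3326595. All treated libraries lay below all vehicle libraries, and differed in log2 by -1.29 ± 0.36 (SE; edgeR adjusted p = 0.482, DESeq2 adjusted p = 0.0735). Pik3r3, a regulatory subunit of PI3-kinase, had 2.49, 2.52 and 2.98 CPM in vehicle and 6.06, 6.33 and 4.65 CPM in GSK3326595. Its log2 difference was 1.09 ± 0.26 (SE; edgeR adjusted p = 0.455, DESeq2 adjusted p = 0.0156). Grb2, the adaptor to RAS signalling, differed by 0.61 ± 0.24, and by 0.35 without GSK3326595 replicate 1. The AKT kinases Akt1 and Akt2 differed by 0.21 ± 0.19 and -0.02 ± 0.14.

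The list of negative regulators of the receptors held 12 genes, among them Sh2b1 and Sh2b2, adaptors that are not simply inhibitors. Of the 12, 1 was higher and 2 were lower at an unadjusted p under 0.05. Grb10, an imprinted adaptor that binds and restrains the insulin and IGF1 receptors, had 284, 262 and 310 CPM in vehicle and 129, 29.7 and 23.5 CPM in GSK3326595. The vehicle libraries were tightly grouped, and all treated libraries lay below them. The log2 difference was -2.23 ± 0.66 (SE; edgeR adjusted p = 0.491, DESeq2 adjusted p = 0.0296), from -1.82 without GSK3326595 replicate 3 to -3.42 without GSK3326595 replicate 1. Its relative Grb14 differed by -0.13 ± 0.16. Ptpn1, a phosphatase of the insulin receptor, differed by 0.69 ± 0.24 (edgeR adjusted p = 0.522), and by 0.42 without GSK3326595 replicate 1. Trib3, an inhibitor of AKT, had 11.7, 20.6 and 2.83 CPM in vehicle and 4.16, 2.02 and 2.63 CPM in GSK3326595, so the groups overlapped. It differed by -1.99 ± 0.70 (edgeR adjusted p = 0.522, unadjusted p = 0.0256, limma-voom 0.0872), and by -1.31 without vehicle replicate 2 (unadjusted p = 0.0932).

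FOXO factors act downstream of the receptors and bind insulin response elements such as that of Igfbp1. Of 13 genes of the insulin and FOXO1 list tested, 0 were higher and 3 lower at an unadjusted p under 0.05, and the 3 were the factors themselves. Foxo1 had 82.2, 92.0 and 69.1 CPM in vehicle and 54.6, 48.1 and 54.4 CPM in GSK3326595, which differ by -0.63 ± 0.17 in log2 (SE; edgeR adjusted p = 0.458, DESeq2 adjusted p = 0.164). Foxo3 differed by -0.52 ± 0.16 and Foxo4 by -0.89 ± 0.36. None of the 3 overlapped between the groups, where 7.66% of all genes were lower without overlap. Foxo4 was close to the threshold: its unadjusted p was 0.0471, from 0.0512 to 0.0697 under the 3 other scalings, and its difference was -0.54 without GSK3326595 replicate 2 and -1.32 without GSK3326595 replicate 1. Foxo3 had an unadjusted p of 0.0152, and 0.0531 when scaled by total counts only. The gluconeogenic genes G6pc and Pck1, which insulin represses through FOXO1, overlapped between the groups, at -0.56 ± 0.85 and 0.52 ± 1.46. Pck1 ran from 5.25 CPM in GSK3326595 replicate 1 to 554 CPM in GSK3326595 replicate 2.

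The growth hormone axis, which drives Igf1 and Igfals in liver, had 1 of 8 genes higher and 2 lower at an unadjusted p under 0.05. Ghr, the growth hormone receptor, had 109.9, 91.3 and 130.1 CPM in vehicle and 219, 263 and 129.7 CPM in GSK3326595 (log2 difference 0.89 ± 0.29, SE; edgeR adjusted p = 0.522). Its unadjusted p was 0.0203, but 0.0591 or 0.0709 when vehicle replicate 1 or 2 was left out, and 0.0527 when GSK3326595 replicate 1 was. Cish, a STAT5-induced inhibitor of the pathway, had 18.3, 20.5 and 10.7 CPM in vehicle and 7.87, 5.36 and 2.56 CPM in GSK3326595. Its log2 difference was -1.64 ± 0.46 (SE; edgeR adjusted p = 0.485, DESeq2 adjusted p = 0.0401), and it was lower in 3 of 3 treated libraries. Onecut1, a hepatocyte transcription factor, differed by -0.54 ± 0.20. Of 10 genes for processing and trafficking of the receptors none had an unadjusted edgeR p under 0.05. Furin, which cleaves the receptor precursors, differed by -0.59 ± 0.28, Ceacam1, which promotes insulin receptor uptake, by 1.16 ± 0.98, and Igf2bp3, an RNA-binding protein named for Igf2 mRNA, by -0.20 ± 0.18.

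**Figure D4:**
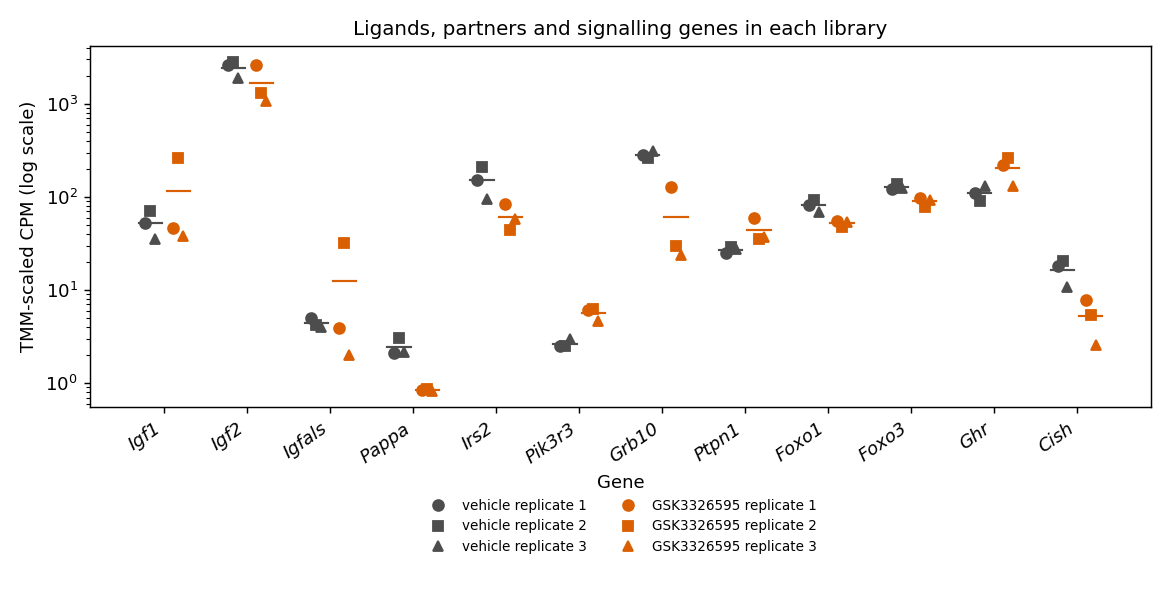
TMM-scaled CPM (log axis) of ligands, partners and signalling genes, 1 point per library, in grey for vehicle and orange for GSK3326595, with lines at group means. Pappa, Irs2, Grb10, Foxo1, Foxo3 and Cish have all treated points below all vehicle points, and GSK3326595 replicate 2 stands alone in Igf1 (264 CPM) and Igfals (31.7 CPM).

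**Figure D5:**
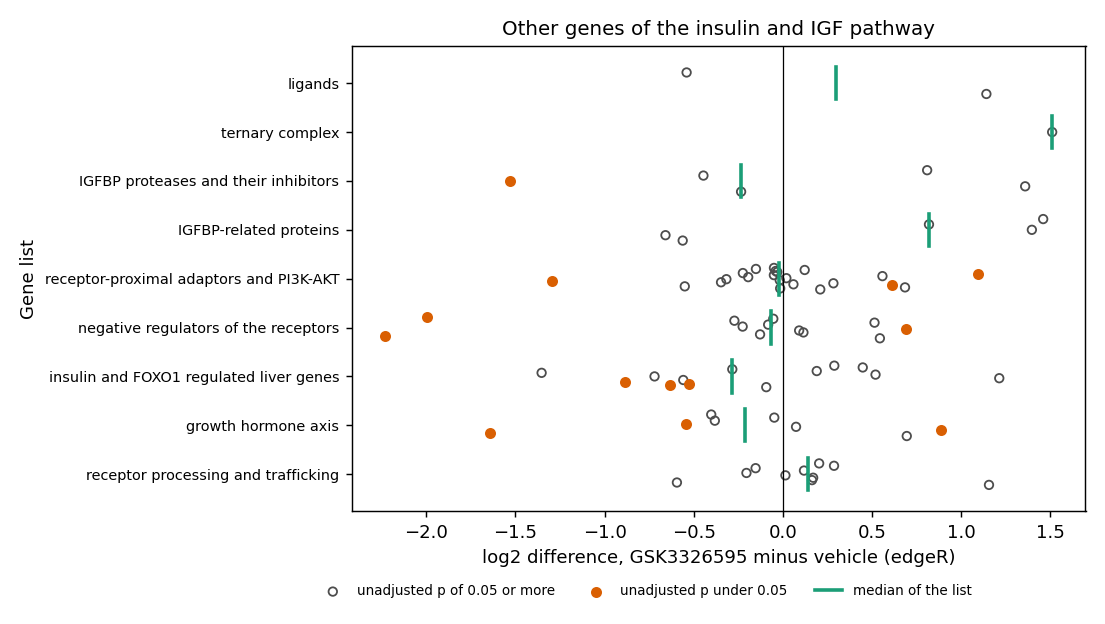
The log2 difference (GSK3326595 minus vehicle) of the 78 other pathway genes tested, by list. Filled orange points have an unadjusted p under 0.05 (13 genes: 4 higher, 9 lower), open points do not, and green lines are list medians, which lie on both sides of 0.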

How the data were processed

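RNA of 3 vehicle and 3 GSK3326595 liver tumor samples was measured by sequencing; the labels' protocols name a stranded library kit for total RNA. The authors deposited expected counts per gene, not scaled to library size. The submitters' processing notes name cutadapt, STAR, Picard and RSEM without versions, and the build mm10. The annotation release and strand setting were not given in the labels or notes. Because 12.3% of values were fractional, all were rounded. Totals were 25814339 to 33621083 per library.

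Groups came from the labels. Of 47643 genes, 17012 passed filterByExpr (minimum count 10). They were scaled by TMM and tested, two-sided, by edgeR (4.0.16, R 4.3.3) with its quasi-likelihood test and Benjamini-Hochberg adjustment over all genes (threshold 0.05); edgeR's common coefficient of biological variation came to 0.409. The log2 difference is GSK3326595 minus vehicle, its SE the absolute difference over the square root of F, and intervals are 95%. TMM factors also scaled the CPM; for log2 CPM a prior count of 2 was added. As other tools, limma-voom (3.58.1) and DESeq2 (1.42.0) were used. The tests were checked on simulated data. Coordinates (1-based) and exon lengths came from GENCODE M21 of the same build; the identifiers of Igf2r and Igfals had another version suffix in the table. Promoters came from RefSeq (9 of 10 members matched by symbol).

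The members, the lists and the rule for named genes were chosen with earlier results of these data known. All members, the ligands, Igfals and Prmt5 were named. From each other list the 3 of smallest edgeR p were named, and for the 4 most variable members the 2 nearest patterns among genes of at least 1 CPM. Akt1, Akt2, Grb14, G6pc, Pck1 and the markers were named after their values were seen. Alternatives were other scaling, filters and tools, a replicate block, other lengths, and leaving out each library.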

Additional observations from a re-analysis of the deposited data

How the results depend on the processing

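The counts of 0 members called higher and 0 lower by edgeR were the same under every scaling, filter and tool, with the replicate block and without each library. In every setting but DESeq2 no gene at all was called, so there the members' counts could not be other than 0. Over all genes, DESeq2 called 202 higher and 111 lower where edgeR called 0 and 0; the cause was not tested. At an unadjusted p under 0.05, 1 member was higher, and from 0 to 1 without each library. The 0 members lower became 1 with no filter on low counts, 1 by DESeq2 and 1 by limma-voom (Igfbp1 each time), 2 with the replicate block (Igfbp1 at -2.84 and Igfbp2 at -2.27), and from 0 to 2 without each library. Over all genes the 927 higher were 1547 with no filter on low counts, 1394 by DESeq2 and 347 to 1629 without each library, and the 648 lower were 430 with total counts only and 241 to 961 without each library. Without each library, 1 to 8 pathway genes were higher and 5 to 11 lower.

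Of the members' log2 differences, 130 of 139 values kept their sign and their side of the threshold, which no gene passed in any setting but DESeq2. That of Igfbp4 turned to 0.0594 with total counts only, where the median gene lay at 0.12, to 0.0011 with upper quartile scaling and to 0.0174 with at least 1 CPM in 3 libraries. Igfbp5 turned to -0.049 by limma-voom. Without each library, Igfbp3 ranged from -0.54 to 1.17, Igfbp4 from -0.14 to 0.12, Igfbp5 from -0.53 to 0.92, Igf2r from -0.0656 to 0.43, Igf1 from -0.28 to 1.57, Igfals from -0.52 to 2.03 and Ceacam1 from -0.86 to 1.67. The filter of at least 1 CPM in 3 libraries removed Igfbp6. All 55 alternative values of the shares differed from the main value by less than the larger group SD. This bound was wide, so it does not show that a difference kept its sign. For Igfbp2 that SD was 9.14 percentage points, where the mean shares were 7.05% in vehicle and 6.82% in GSK3326595.

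The samples share only a replicate number: deviations of same-numbered libraries correlated at -0.0728, 0.0718 and 0.323 across genes, and GSK3326595 replicate 1 correlated best with vehicle replicate 2 (0.324). With the replicate block 638 genes were higher and 779 lower at an unadjusted p under 0.05. With 3 libraries a group, the intervals of Igfbp1, Igfbp2, Igfbp3 and Igfbp5 span several log2 units.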
